A study of Mus musculus with 8 samples.

Results

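Genes of megakaryocytes and platelets were examined in bone marrow cells sorted on the integrin subunit Cd11b. The set consists of 9 genes: Pf4, Ppbp, Vwf, Tubb1, Itga2b, Itgb3, Gp9, Gp1bb and Gp1ba. They were chosen by gene name, with earlier results of these data known. Every probe set (the group of short probes that an Affymetrix array carries for a transcript) annotated to one of them was used. This gave 11 probe sets for 8 of the 9 genes, out of 45037 probe sets and 18193 named genes in all. Itgb3 had 2 of them and Gp1bb 3, one of which, 1452357_at, is also annotated to Septin5. The annotation used here pairs no probe set with Gp1ba, which was not analysed here.

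Each of the 2 groups held 4 arrays of mice aged 8 weeks on a mixed background of FVB and C57BL6. The controls had the genotype E2F1-/-2+/+3f/f and the experimental mice the genotype Mxcre;E2F1-/-2-/-3f/f. Both groups therefore lacked E2f1 and carried floxed E2f3, and the experimental mice also lacked E2f2 and carried the Mx-Cre transgene. The Mx promoter responds to interferon in many cell types and is not restricted to myeloid cells. All mice received 5 injections of 250 µg of pIpC, a synthetic RNA that induces interferon, and were killed 24 h after the last. No control carried Cre, so Cre and the loss of E2f2 and E2f3 cannot be told apart. The comparison asks how sorted myeloid cells differ when E2f2 and E2f3 are targeted on top of E2f1. E2f1, E2f2 and E2f3 encode the activating E2F factors of the cell cycle. The labels do not say that each sample came from a separate animal, and the p-values then reflect sample-to-sample spread alone, part of which may be technical.

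Megakaryocytes are large polyploid marrow cells that shed platelets into the blood. Their granules store the chemokines encoded by Pf4 and Ppbp and the adhesive protein von Willebrand factor, their proplatelets are built on a lineage-restricted beta tubulin encoded by Tubb1, and their surface carries the fibrinogen receptor Itga2b-Itgb3 and the von Willebrand factor receptor made of Gp1ba, Gp1bb and Gp9 with Gp5. Megakaryocytes and platelets are not granulocytes or monocytes, the main cells that carry Cd11b. In a bulk sample fewer cells of a type and less RNA per cell cannot be told apart.

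The sorted cells carried strong signal of the intended lineage. Itgam, which encodes Cd11b itself, read 11.58 ± 0.07 in controls and 11.54 ± 0.27 in experimental samples (log2, SD, n = 4 each), a difference of -0.04 ± 0.13 (SE; limma adjusted p = 0.911). The mean level of 14 neutrophil and sort markers lay between 13.05 and 13.20 in the control arrays and between 12.95 and 13.10 in the experimental arrays. Array medians lay between 5.01 and 5.04.

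Because the data concern which genes of a shared lineage differed together, promoter sequences are shown for Pf4, Ppbp and Tubb1, which were lower in the experimental samples, and for Gp9, which was not. RefSeq promoter sequences of GRCm38.p6 matched 7 of the 9 genes, all except Vwf and Itgb3. Each runs from 250 bases before to 50 bases after an annotated start, 5′ to 3′ along the gene. Capitals mark matches on either strand to the GATA factor words, which are TGATAA or its variant AGATAA, and to the word of the ETS factors, which is AGGAAG. Proteins of the GATA and ETS type are the main families of megakaryocyte transcription factors. The intervals are chr5:90772185-90772484, plus strand, chr5:90768268-90768567, plus strand, chr2:174450345-174450644, plus strand and chr6:87777820-87778119, plus strand.
Pf4: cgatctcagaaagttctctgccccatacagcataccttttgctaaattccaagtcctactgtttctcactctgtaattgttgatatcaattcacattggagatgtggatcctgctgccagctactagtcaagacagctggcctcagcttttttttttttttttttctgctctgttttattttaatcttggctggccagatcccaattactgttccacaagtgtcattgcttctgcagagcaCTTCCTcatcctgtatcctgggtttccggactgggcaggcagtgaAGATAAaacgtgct
Ppbp: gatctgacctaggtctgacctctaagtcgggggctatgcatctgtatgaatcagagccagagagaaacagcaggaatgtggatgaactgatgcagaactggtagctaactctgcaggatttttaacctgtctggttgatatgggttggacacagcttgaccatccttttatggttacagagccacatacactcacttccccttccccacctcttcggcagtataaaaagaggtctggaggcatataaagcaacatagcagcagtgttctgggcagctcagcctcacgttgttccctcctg
Tubb1: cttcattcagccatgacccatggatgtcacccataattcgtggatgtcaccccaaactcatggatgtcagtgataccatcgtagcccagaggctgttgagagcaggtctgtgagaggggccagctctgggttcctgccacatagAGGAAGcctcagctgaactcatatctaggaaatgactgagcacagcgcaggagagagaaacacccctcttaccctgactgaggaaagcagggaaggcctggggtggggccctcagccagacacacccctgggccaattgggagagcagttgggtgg
Gp9: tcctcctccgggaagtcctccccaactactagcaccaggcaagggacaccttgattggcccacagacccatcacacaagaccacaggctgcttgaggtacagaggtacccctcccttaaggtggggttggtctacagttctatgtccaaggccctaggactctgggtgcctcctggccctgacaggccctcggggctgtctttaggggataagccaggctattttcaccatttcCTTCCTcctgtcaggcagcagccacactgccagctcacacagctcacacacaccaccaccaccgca

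In these windows Pf4 held AGATAA from position 37 after the start and AGGAAG on the opposite strand from position -9. Tubb1 held AGGAAG from position -106 and Gp9 held it on the opposite strand from position -16, while the Ppbp window held none of the words. Itga2b, whose window is not printed, held AGGAAG from positions -125 and -43. The ETS word was present in 6 of the 7 windows and in 35.4% of 32851 promoters of the same length, and a GATA word in 2 of the 7 (Pf4 and Gp1ba) and in 18.6% of them. The E2F words TTCCCGC and TTGGCGC, searched on both strands, were in none of the 7 windows and in 6.81% of promoters. The NF-E2 word TGAGTCA was likewise in none of them and in 5.2% of promoters. No matches of different words overlapped in these windows. A match is a description of letters and not a measured binding site. Only the words named were searched, so a window without them may hold other forms of these sites.

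Of the 8 measured genes, 4 were lower in the experimental samples: Ppbp, Pf4, Tubb1 and Vwf, by 4.73-fold, 2.80-fold, 2.13-fold and 1.82-fold. They encode a pair of platelet chemokines, the platelet tubulin and the adhesive protein of the granules. None was higher, a direction called for 1.53% of all genes. The genes of the fibrinogen receptor, Itga2b and Itgb3, and those of the von Willebrand factor receptor, Gp9 and Gp1bb, did not pass the threshold. The limma fit thus called 4 of the 11 probe sets lower (36.4%), while 1.55% of all probe sets were called lower with the same rule, an adjusted p of 0.05 over all 45037, and 2.58% in either direction. Without control replicate 2 the count was 2 (Pf4 and Ppbp), and it was 3 or 4 without any other array. The arrays of the groups did not overlap in 5 of the 11, all lower, against 6.15% of all probe sets. By gene, 4 of 8 were called, against 3.47% of all genes in either direction. The median difference of the 8 genes was -0.67 on the log2 scale, and that of all 18193 genes was 0.01. Because the genes were chosen with earlier results of these data known, these shares describe the set and do not test it.

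**Figure D1:**
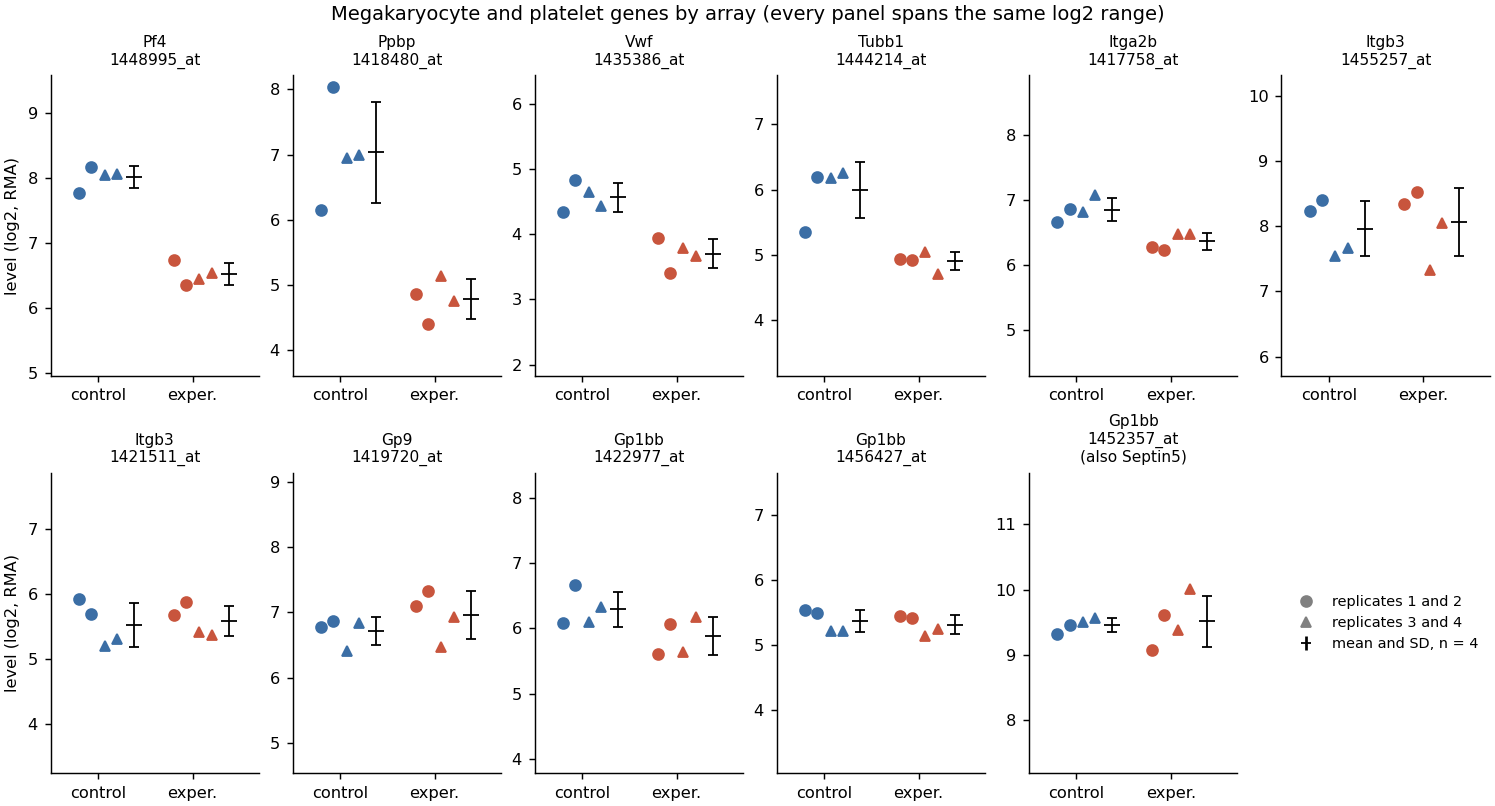
Level of each probe set in each array (log2 after RMA, vertical axis) in control and experimental samples, with circles for replicates 1 and 2, triangles for replicates 3 and 4, and the mean with SD (n = 4) beside them. The experimental arrays lie below every control for Pf4, Ppbp, Vwf, Tubb1 and Itga2b, and overlap the controls in the other 6 panels.

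Pf4 encodes platelet factor 4, a CXC chemokine of the alpha granules. Probe set 1448995_at read 7.77, 8.17, 8.04 and 8.06 in control replicates 1 to 4 and 6.74, 6.36, 6.45 and 6.54 in experimental replicates 1 to 4. The groups were separated by 1.03 on the log2 scale, more than the range within either. The means were 8.01 ± 0.17 and 6.52 ± 0.16 (SD, n = 4 each). Pf4 fell by 1.49 ± 0.12 (SE; limma adjusted p = 0.00113), to 35.7% of the control level, with a 95% interval of -1.75 to -1.22. The call held in each of the 8 fits made without 1 array (adjusted p = 0.00272 to 0.00751). By p-value it stood at rank 10 of all 45037 probe sets, and by size at rank 43 of the 354 genes that fell.

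Ppbp encodes pro-platelet basic protein, the precursor of another CXC chemokine of the alpha granules that attracts neutrophils. Probe set 1418480_at read 6.15, 8.04, 6.95 and 6.998 in control replicates 1 to 4 and 4.86, 4.40, 5.15 and 4.76 in the experimental replicates. The controls spread widely, with replicate 1 lowest and replicate 2 highest, yet the lowest control stood 1.00 above the highest experimental array. The means were 7.03 ± 0.78 and 4.79 ± 0.31 (SD, n = 4 each). Ppbp fell by 2.24 ± 0.34 (SE; limma adjusted p = 0.0117; 95% interval -2.99 to -1.49), to 21.1% of the control level. It had rank 9 by size among the 354 genes that fell and passed in all 8 fits without 1 array (adjusted p = 0.00947 to 0.0419). The experimental mean lay below the array medians, in the range where signal after RMA is close to background and folds tend to be compressed.

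Pf4 and Ppbp lie next to each other on chromosome 5 in RefSeq GRCm38.p6, within a cluster of CXC chemokine genes. The 5 protein-coding genes on either side of the pair were all measured. None of these 10 passed the threshold (smallest limma adjusted p = 0.406), which only 3.47% of all genes passed in either direction. They included Cxcl5, Cxcl3, Cxcl15, Cxcl1 and Cxcl2, which encode chemokines made by other cells and differed by -0.13 to -0.02. Cxcl1 read 7.51 in controls and 7.44 in experimental samples, and Cxcl2 read 6.45 and 6.32. Cxcl5 and Cxcl3 were dim in both groups (2.25 and 2.21, and 2.24 and 2.21). The means of Cxcl15, Afp, Albfm1, Rassf6 and Mthfd2l also lay below the array medians in both groups. The array therefore gives little on most of these neighbours. These neighbours were chosen after the values of Pf4 and Ppbp were seen.

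Vwf encodes von Willebrand factor, which megakaryocytes and endothelial cells make and which ties platelets to exposed matrix. Probe set 1435386_at read 4.34, 4.83, 4.65 and 4.43 in control replicates 1 to 4 and 3.94, 3.41, 3.79 and 3.67 in the experimental replicates. The groups did not overlap, with a gap of 0.40. Vwf fell by 0.86 ± 0.14 (SE, n = 4 each; limma adjusted p = 0.0174; 95% interval -1.19 to -0.54), to 55.0% of the control level. Both means, 4.56 ± 0.22 and 3.70 ± 0.22 (SD), lay below the array medians. It passed in 7 of the 8 fits without 1 array and missed the threshold when control replicate 2 was left out (adjusted p = 0.0541, the highest of the 8, whose lowest was 0.0240). Of 16 endothelial markers none fell by this fit. Tie1, an endothelial receptor kinase gene, rose from a dim 3.89 ± 0.53 to 5.05 ± 0.26 (SD, difference 1.17 ± 0.24 SE, limma adjusted p = 0.0387). Lyve1, a hyaluronan receptor gene of lymphatic and some sinusoidal endothelium and of macrophages, was lower in the means without overlap (7.43 ± 0.48 and 5.98 ± 0.79, SD, n = 4 each). Its difference of -1.45 ± 0.37 (SE) missed the threshold (limma adjusted p = 0.0761) and passed with the replicate block (0.0138). Cdh5, which encodes VE-cadherin, differed by -0.46 ± 0.15 (adjusted p = 0.139). Lyve1 and Cdh5 were singled out after their values were seen, and the part of endothelial cells in the fall of Vwf was not tested. The mean level of these 16 lay between 4.76 and 4.87 in control arrays and between 4.67 and 4.88 in experimental arrays. Of the 16, 13 had a mean below 6, so the list could show a fall only poorly. Tie1 passed when control replicate 1, control replicate 3 or experimental replicate 2 was dropped and in no other fit without 1 array (adjusted p = 0.0319 to 0.102).

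Tubb1 encodes the beta tubulin of the platelet marginal band. Probe set 1444214_at read 5.35, 6.19, 6.19 and 6.26 in control replicates 1 to 4 and 4.93, 4.93, 5.04 and 4.71 in the experimental replicates. Control replicate 1 stood apart from the other controls towards the experimental level, and the groups were separated by 0.31. Tubb1 fell by 1.09 ± 0.19 (SE, n = 4 each; limma adjusted p = 0.0219; 95% interval -1.53 to -0.66), to 46.9% of the control level, from 5.998 ± 0.43 to 4.90 ± 0.14 (SD). The call rested on several arrays. It was kept without control replicate 1 (adjusted p = 0.00659, difference -1.31) and without experimental replicate 2 (0.0305) or 3 (0.0379), and lost when control replicate 2 (0.0752), 3 (0.0584) or 4 (0.0706) was dropped, or experimental replicate 1 (0.0553) or 4 (0.0607).

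Itga2b encodes the integrin subunit CD41, which appears early in the lineage and, with the product of Itgb3, forms the fibrinogen receptor. Probe set 1417758_at read 6.65, 6.85, 6.81 and 7.08 in control replicates 1 to 4 and 6.28, 6.23, 6.47 and 6.47 in the experimental replicates. All 4 experimental arrays lay below all 4 controls, by 0.18. The difference was -0.49 ± 0.11 (SE; means 6.85 ± 0.17 and 6.36 ± 0.13, SD, n = 4 each), which did not pass (limma adjusted p = 0.0568; 95% interval -0.74 to -0.23). With the replicate number as a block it passed (adjusted p = 0.0357), and 5 of the 11 probe sets were then lower, against 2.84% of all probe sets. Without 1 array the adjusted p lay between 0.0720 and 0.153.

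Itgb3, the partner subunit CD61, is also made by osteoclasts and macrophages, where it pairs with another alpha subunit. Probe set 1455257_at read 8.23, 8.40, 7.55 and 7.66 in control replicates 1 to 4 and 8.33, 8.52, 7.33 and 8.05 in the experimental replicates. Replicates 1 and 2 were above replicates 3 and 4 in both groups, and the groups overlapped. The difference was 0.10 ± 0.27 (SE; limma adjusted p = 0.900; 95% interval -0.51 to 0.71), so a fall as large as that of Pf4 lay outside the interval. Probe set 1421511_at differed by 0.06 ± 0.18 (adjusted p = 0.914; 95% interval -0.34 to 0.45), from 5.53 ± 0.34 to 5.58 ± 0.23 (SD, n = 4 each). Of 14 osteoclast and macrophage markers none passed, with the brightest, Mmp9, at -0.18 ± 0.13 (adjusted p = 0.545) and Csf1r at -0.64 ± 0.22 (adjusted p = 0.178). The mean level of the 14 osteoclast and macrophage markers lay between 6.87 and 8.11 in the controls and between 7.14 and 7.61 in the experimental arrays.

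Gp9 encodes glycoprotein IX, a small subunit of the von Willebrand factor receptor. Probe set 1419720_at read 6.77, 6.87, 6.40 and 6.84 in control replicates 1 to 4 and 7.10, 7.33, 6.46 and 6.93 in the experimental replicates, and the groups overlapped. The difference was 0.24 ± 0.18 (SE, n = 4 each; limma adjusted p = 0.567; 95% interval -0.17 to 0.64), the only one of the 8 genes apart from Itgb3 with a mean above the control. Gp1bb encodes another subunit of the same receptor. Its probe set 1422977_at read 6.09, 6.66, 6.09 and 6.32 in controls and 5.61, 6.07, 5.65 and 6.18 in experimental replicates 1 to 4, with overlapping groups. The difference of -0.41 ± 0.17 (SE) did not pass (adjusted p = 0.260; 95% interval -0.80 to -0.03). The dimmer probe set 1456427_at differed by -0.05 ± 0.12 (adjusted p = 0.868; 95% interval -0.31 to 0.21). The probe set shared with Septin5, a gene that lies directly before Gp1bb and is also transcribed into it, read 9.46 ± 0.11 and 9.52 ± 0.39 (SD), a difference of 0.06 ± 0.18 (adjusted p = 0.913), and does not tell the genes apart. Gp5, the last subunit of the complex, read 5.20 ± 0.23 and 4.72 ± 0.16 (SD) and missed the threshold at -0.48 ± 0.13 (SE; adjusted p = 0.101) although the groups did not overlap. Gp5 was singled out after its values were seen.

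**Figure D2:**
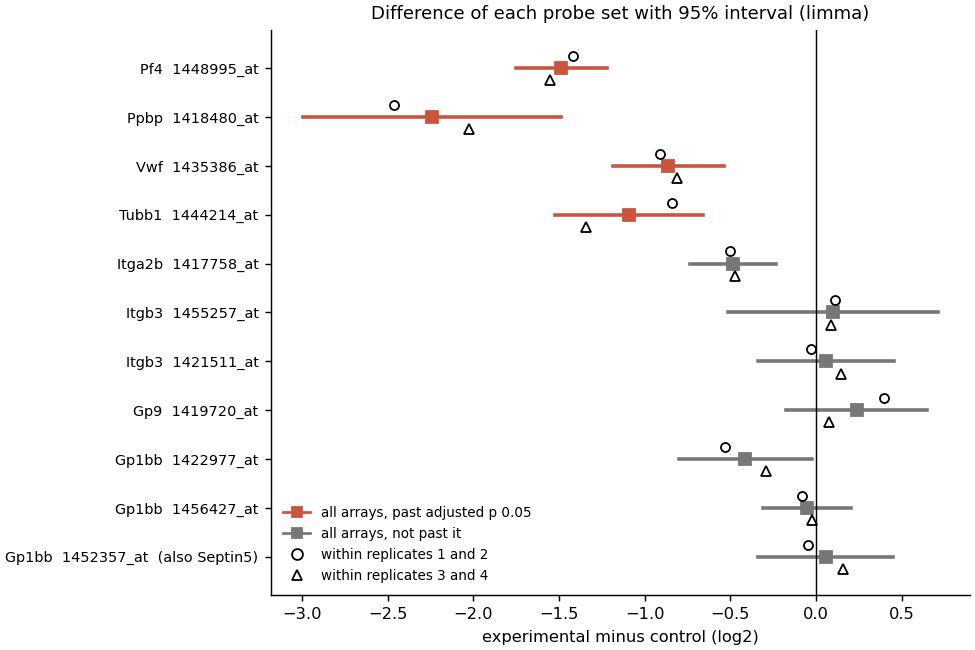
Experimental minus control difference (log2, horizontal axis) of each probe set with its 95% interval from the limma fit on all 8 arrays, in red where the adjusted p was below 0.05, and the same difference within replicates 1 and 2 (circles) and within replicates 3 and 4 (triangles). The intervals are not adjusted for the number of probe sets. Those of Pf4, Ppbp, Vwf and Tubb1 lie below 0, as do those of Itga2b and Gp1bb 1422977_at, whose adjusted p did not pass. Those of both Itgb3 probe sets, of Gp9 and of the other Gp1bb probe sets include 0. The values within the pairs of replicates are -1.42 and -1.55 for Pf4 and -0.84 and -1.35 for Tubb1.

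The codes of the samples come in a pair of styles, a digit then a letter for replicates 1 and 2 and a letter then a digit for replicates 3 and 4, and arrays of a style deviated together. Within replicates 1 and 2 the differences were -1.42 for Pf4, -2.46 for Ppbp, -0.91 for Vwf, -0.84 for Tubb1 and -0.50 for Itga2b. Within replicates 3 and 4 they were -1.55, -2.02, -0.81, -1.35 and -0.47. Since the groups do not overlap for these 5, the shared sign is fixed and only the sizes are informative. The difference between the styles was tested as an interaction and passed for 0 of the 11 probe sets by limma (smallest adjusted p = 0.751, with 0 below an unadjusted p of 0.05), against 0.0111% of all probe sets. Alone, the 2 against 2 arrays of replicates 1 and 2 called none of the 11 probe sets by limma, against 0.289% of all probe sets, and those of replicates 3 and 4 called 3 (Pf4, Ppbp and Tubb1), against 0.928%.

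The arrays within a group were ordered alike across several genes. Control replicate 1 was the lowest control for all 5 genes whose groups did not overlap, control replicate 2 was the highest for Pf4, Ppbp and Vwf, and experimental replicate 2 was the lowest experimental array for 4 of the 5, all except Tubb1. RNA integrity was read from control probe sets at both ends of a transcript. For beta-actin the log2 ratio of 3′ over 5′ signal averaged 0.30 in controls and 0.44 in experimental samples with no overlap, and for Gapdh it averaged -0.12 and -0.09 with overlap. Whether RNA integrity had a part in the differences was not tested.

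Whether the genes changed unequally was examined on the difference of a pair of probe sets within each array, in 18 comparisons chosen after the values were seen. Each of the 4 genes that fell was set against Itgb3 (1455257_at), Gp9 (1419720_at) and Gp1bb (1422977_at, the brightest probe set of Gp1bb alone, which leaves out the one shared with Septin5), and the 4 against one another. The difference of Pf4 was -1.58 relative to Itgb3, -1.72 relative to Gp9 and -1.07 relative to Gp1bb, and that of Ppbp was -2.34, -2.48 and -1.83, each without overlap between the groups. Vwf stood at -1.10 relative to Gp9 without overlap, but overlapped relative to Itgb3 (-0.96) and Gp1bb (-0.45). Tubb1 overlapped relative to all of them (-1.19, -1.33 and -0.68). Among the genes that fell, Pf4 and Ppbp each separated from Vwf, at -0.62 and -1.38, and Ppbp from Tubb1, at -1.15, whereas the groups overlapped for Pf4 against Ppbp (0.76) or Tubb1 (-0.39) and for Vwf against Tubb1 (0.23). In a two-sided exact permutation test with arrays exchanged freely, 10 of the 18 reached the smallest possible p of 0.0286, or 0.0515 after Benjamini-Hochberg adjustment over the 18, and the other 8 lay between 0.0571 and 0.286. That test leaves out the pairing of same-numbered arrays. With the groups exchanged within the 4 pairs, an alternative added after seeing the data, the smallest possible exact p is 0.125, which 14 of the 18 reached. None passed 0.05 in either form, and the paired form cannot. The genes were sorted into those that fell and those that did not pass on these same arrays. A difference between them was thus favoured in advance, so these p-values are a description and cannot decide whether the genes changed unequally.

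Other genes of the lineage were counted in 4 lists by role, each gene by its brightest probe set. Of 67 measured, 4 fell and 1 rose, or 5.97% lower, against 1.95% lower of all genes, with a median difference of -0.08 against 0.01. The 4 that fell were Thbs1, Angpt1, Plek and Cd9, and P2rx1 rose. With the replicate number as a block 8 fell and 3 rose, while that fit called 3.02% of all genes lower and 6.18% in either direction. Those added were Runx1, Lyl1, Clec1b and Cd36 on the lower side and Selp and Pecam1 on the higher side. Without 1 array the count was 1 to 5, with 1 left when control replicate 1, 2 or 4 or experimental replicate 4 was dropped, 2 when experimental replicate 1 or 3 was dropped and 3 when control replicate 3 was dropped.

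Of 13 other granule and secreted proteins, 2 fell. Thbs1 encodes thrombospondin 1, a matrix protein of the alpha granules that monocytes also make. It read 10.64, 10.10, 10.48 and 9.96 in control replicates 1 to 4 and 8.15, 8.55, 8.74 and 7.74 in the experimental replicates. Every experimental array lay more than 1 log2 unit below every control. Thbs1 fell by 2.00 ± 0.23 (SE, 4.01-fold; limma adjusted p = 0.00435) and passed in all 8 fits without 1 array. Angpt1, a ligand of the Tek receptor, fell by 0.92 ± 0.18 (adjusted p = 0.0318), from 5.63 ± 0.30 to 4.71 ± 0.29 (SD, n = 4 each). It passed when control replicate 3, experimental replicate 1 or experimental replicate 2 was dropped and in no other of these fits (adjusted p = 0.0228 to 0.0926).

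Of 19 other platelet surface receptors, 1 fell and 1 rose. Cd9, a tetraspanin gene that is abundant on platelets and also on other marrow cells, fell by 0.66 ± 0.15 (SE, n = 4 each; limma adjusted p = 0.0498), from 11.71 ± 0.12 to 11.05 ± 0.30 (SD), and passed only without experimental replicate 2 among the fits without 1 array (adjusted p = 0.0121 to 0.151). P2rx1, an ATP-gated channel gene of platelets and neutrophils, rose by 0.91 ± 0.18 (adjusted p = 0.0299), from 7.38 ± 0.23 to 8.29 ± 0.33, and passed without experimental replicate 2 or 3 only (0.0214 to 0.0869). Clec1b, the platelet receptor for podoplanin, read 5.74, 5.997, 4.21 and 6.11 in controls and 3.54, 4.18, 3.60 and 4.93 in experimental replicates 1 to 4. It had a difference of -1.45 ± 0.44 (SE) that missed the threshold (adjusted p = 0.123; 0.0190 with the replicate block), with control replicate 3 inside the experimental range. Selp, which encodes P-selectin of platelets and endothelium, differed the other way by 0.77 ± 0.28 (limma adjusted p = 0.203, and 0.0317 with the replicate block). Of the 19 receptor genes 6 had a difference below 0, and the median difference was 0.09. A mean below 6 was found for 10 of the 19, so dim signal limits this list. Clec1b and Selp were singled out after their values were seen.

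Of 24 genes of platelet biogenesis, cytoskeleton and signalling, Plek alone passed. It encodes pleckstrin, a protein kinase C substrate of platelets and leukocytes, and fell by 0.65 ± 0.13 (SE; limma adjusted p = 0.0370), from 10.84 ± 0.17 to 10.20 ± 0.22 (SD, n = 4 each). It passed only without experimental replicate 2 among the fits without 1 array (adjusted p = 0.0251 to 0.115). Of 11 transcription and cytokine control genes none passed, and with the replicate block Runx1 (-0.81, adjusted p = 0.0147) and Lyl1 (-0.50, adjusted p = 0.0416) did. The brightest were Cbfb (0.03 ± 0.10, adjusted p = 0.927) and Nfe2 (-0.08 ± 0.12, adjusted p = 0.804), the latter a factor of late megakaryocyte maturation. Gata1, the factor shared by the erythroid and megakaryocyte lineages and named after its values were seen, differed by 0.32 ± 0.22 (adjusted p = 0.512). Gata1 read 8.28 in experimental replicate 1 and 7.07 to 7.38 in the other experimental arrays. Of 10 early megakaryocyte and stem cell genes, Procr, a surface receptor gene of stem cells, rose by 0.53 ± 0.10 (adjusted p = 0.0229) from a dim 4.18 ± 0.07 to 4.71 ± 0.13, and passed without experimental replicate 1 or 2 only (0.0221 to 0.0753).

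**Figure D3:**
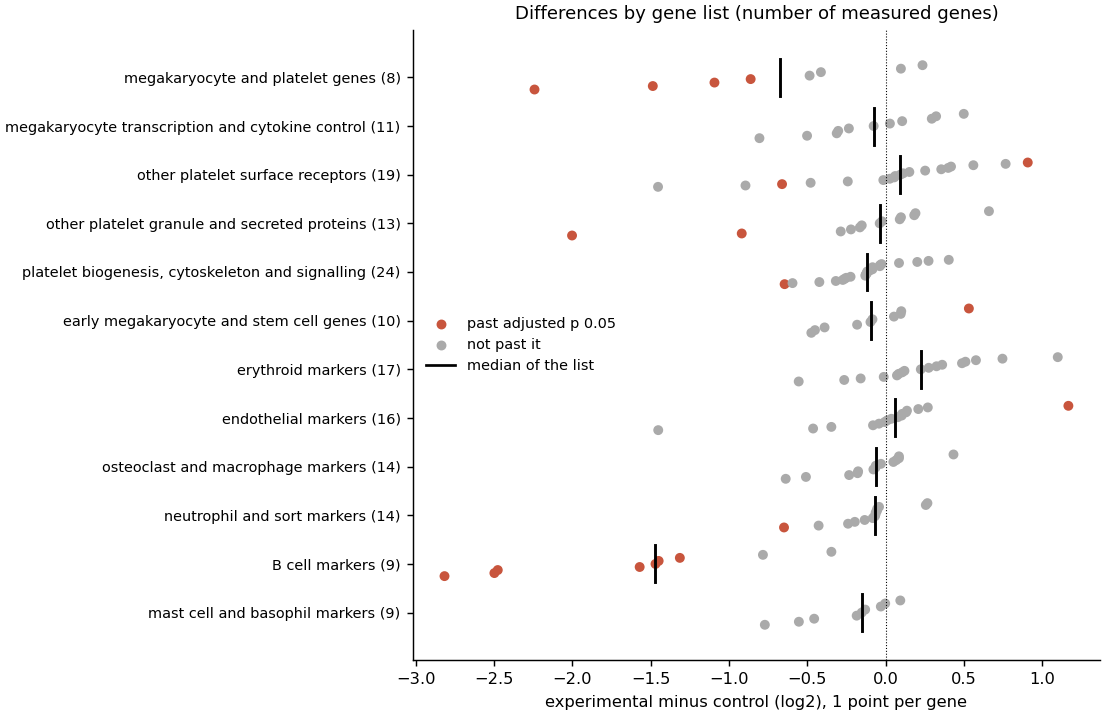
Experimental minus control difference (log2, horizontal axis) of every measured gene by list, 1 point per gene by its brightest probe set, in red where the limma adjusted p was below 0.05, with a bar at the median of the list. The megakaryocyte and platelet genes have a median of -0.67, the 4 other lists of the lineage have medians between -0.12 and 0.09, and the B cell markers have a median of -1.47.

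Markers of other cells that a marrow sort could hold were read beside these genes. Of 17 erythroid markers none passed (median difference 0.22), with the brightest, Car2 and Tfrc, at 0.11 ± 0.27 (SE; limma adjusted p = 0.890) and 0.58 ± 0.24 (adjusted p = 0.249). With the replicate block 1 passed: Alas2, the heme synthesis enzyme of red cell precursors, at 1.10 ± 0.42 (adjusted p = 0.0342; 0.216 without the block). Alas2 read 10.96 in experimental replicate 1 and 8.67 to 9.55 in the other experimental arrays. Experimental replicate 1 was the highest experimental array for most of the 17 erythroid markers. The mean level of the 17 lay between 8.07 and 8.37 in the controls and between 7.89 and 9.29 in the experimental arrays. Of 9 mast cell and basophil markers none passed (median -0.15), with Hdc at -0.15 ± 0.17 (adjusted p = 0.710) and Mcpt8 at -0.46 ± 0.21 (adjusted p = 0.314). With the replicate block 1 passed: Gata2, a factor also of early megakaryocyte precursors, at -0.55 ± 0.15 (adjusted p = 0.0494; 0.0983 without the block). Alas2 and Gata2 were named after their values were seen. Of 9 B cell markers 7 fell, with a median of -1.47. Their mean level lay between 7.37 and 8.04 in the controls and between 5.57 and 6.50 in the experimental arrays, without overlap. They included Ms4a1 (-2.82 ± 0.42, adjusted p = 0.0116), Fcmr (-2.50 ± 0.42, adjusted p = 0.0185), Spib (-2.48 ± 0.30, adjusted p = 0.00575) and Cd79a (-1.57 ± 0.16, adjusted p = 0.00258). Among these 4, Fcmr lost its call when control replicate 1 or 2 was dropped (highest adjusted p 0.0615) and the others kept theirs without any 1 array. The B cell genes thus shared with Pf4 and Ppbp the direction of the difference between groups. Control replicate 1, the lowest control for Pf4 and Ppbp, was not the lowest for Ms4a1, Fcmr, Spib or Cd79a. Experimental replicate 2 was the lowest experimental array for all 4, as it was for Pf4 and Ppbp. Control replicate 2, the highest control for Pf4 and Ppbp, was also the highest for Ms4a1 and Fcmr but not for Spib or Cd79a. Whether fewer non-myeloid cells in the sort had a part in the lower B cell genes or in Pf4 and Ppbp was not tested. Among 14 neutrophil and sort markers, Csf3r, the receptor gene for G-CSF, fell by 0.65 ± 0.09 (adjusted p = 0.00943) and the others did not pass.

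The genes whose pattern was most like that of the lineage set were sought over 8716 genes with a mean of at least 6, by Pearson correlation over 8 arrays with the mean z score of the 7 genes brighter than the median probe set, all except Vwf and Gp1ba. The highest were Adipor1 (r = 0.99), Atxn7l1 (0.99), Nfat5 (0.99), Map3k3 (0.98), Plek (0.98) and Stk10 (0.97). Of these Plek alone passed the test between groups, and the others differed by -0.39 to -0.26. For deviations from the group means, which leave out the difference between groups, the highest were Ovgp1 (r = 0.98), Atxn7l1 (0.98), Adipor1 (0.97), Mfsd6 (0.97), Nckap1l (0.96) and Nfat5 (0.96). With 8 arrays and 8716 genes, high values of r arise readily, the arrays share their group and sample code, and these are given as a description with no p. The mean z score also takes in Itgb3, Gp9 and Gp1bb, so likeness to it is not likeness to the genes that fell alone. Experimental replicate 2 had the highest mean z score of the experimental arrays (-0.23), although it was the lowest of them for Pf4, Ppbp and Itga2b.

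**Figure D4:**
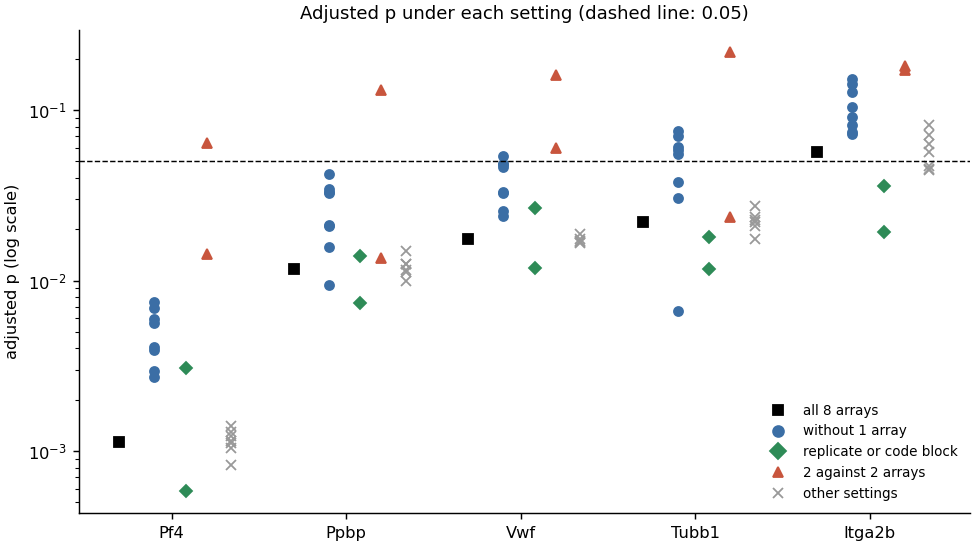
Adjusted p (log axis) of the 5 genes whose groups did not overlap, for all 8 arrays (black squares) and for each alternative setting, with a dashed line at 0.05. Pf4 and Ppbp cross the line only for the 2 against 2 arrays of replicates 1 and 2, Tubb1 also for 5 fits that leave out 1 array, and Itga2b lies on both sides.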

How the data were processed

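RNA of 4 control and 4 experimental samples was labelled from 2.5 µg of total RNA and hybridised to Affymetrix mouse arrays. The values deposited by the authors are log2 levels per probe set, which the submitters' processing notes say were made with RMA (background correction, quantile normalization and probe summary; version not given in the sources used here). From 45101 probe sets, 64 control probe sets were left out. Of the 45037 tested, 34945 carried 1 gene symbol, 932 several and 9160 none, and 34741 of the first matched RefSeq by gene identifier. Differences were fitted with limma 3.58.1 in R 4.3.3 (lmFit, eBayes, no term but group), and p-values were adjusted over all probe sets by Benjamini-Hochberg. Levels carry the SD over 4 arrays and differences the moderated SE. The number of arrays limits the precision.

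The genes and lists were chosen with earlier results of these data known. Named were all probe sets of the 9 genes and, from each other list, up to 4 genes per direction with the smallest p past the threshold or the 2 brightest where none passed, together with Itgam and the 6 genes most alike by either correlation. Same-numbered arrays deviated together (correlations 0.20 to 0.26 in 4 of 4 pairs). Other numbers of the same code style gave 0.14 to 0.26, an overlapping range, and arrays across styles -0.27 to -0.13. These values do not separate a pairing by number from a shared code style. The main fit has neither as a term, and each was used as a block in an alternative fit. The fit was tested on simulated data. Alternatives were scaling, filters on dim probe sets, variance models, array weights, blocks and left-out arrays.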

Additional observations from a re-analysis of the deposited data

Results flagged for a closer look

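In the control group the lowest array of Tubb1 (1444214_at, replicate 1) stood apart from the other 3: its gap to the next array was 0.919 of the whole range of the group, above Dixon's 95% critical value for 4 samples. Of the 22 groups of 4 examined for the 11 probe sets this was the only one, and chance alone gives about 1 in 20. Its part in the result was measured by leaving it out, which moved the difference of Tubb1 from -1.09 to -1.31 with limma adjusted p = 0.00659.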

How the results depend on the processing

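The falls of Pf4 and Ppbp kept their call in every setting in which they were tested except the 2 against 2 arrays of replicates 1 and 2. The filter on a mean of at least 6 left Ppbp, Vwf and Tubb1 untested, and that on the median level Vwf. Within replicates 1 and 2 the differences and limma adjusted p were -1.42 (0.0644) for Pf4, -2.46 (0.131) for Ppbp, -0.91 (0.161) for Vwf and -0.84 (0.218) for Tubb1, with fewer samples. Within replicates 3 and 4 Vwf was at -0.81 (0.0596). Leaving out 1 array gave -1.57 to -1.43 for Pf4, -2.54 to -1.91 for Ppbp, -0.94 to -0.76 for Vwf, -1.31 to -1.01 for Tubb1 and -0.55 to -0.41 for Itga2b. Itga2b passed at -0.49 with code style as a block (0.0192), the replicate block (0.0357), probe sets above the median level (0.0470) or with a mean of at least 6 (0.0442), and at -0.46 with quantile normalization applied again (0.0448); the cause was not tested. The other 6 probe sets passed in no setting in which they were tested. The count of the 11 probe sets was 2 among probe sets with a mean of at least 6 (Pf4 and Itga2b, of 6 tested), 0 within replicates 1 and 2, and 2 to 4 without 1 array, with 2 without control replicate 2. The other lineage genes numbered 11 with code style or the replicate block, 2 within replicates 1 and 2, 1 within replicates 3 and 4 and 1 to 5 without 1 array. Over all probe sets 1162 passed, 2582 with code style as a block, 2277 with the replicate block, 130 and 418 within the pairs of replicates and 395 to 1744 without 1 array. The replicate block changed no other call of the 11 probe sets. Dim signal limits Vwf, and Ppbp and Tubb1 in the experimental arrays.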

Other observations

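The Itgb3 probe sets followed the style of the sample codes more than the genotype. At 1455257_at the 4 arrays of replicates 1 and 2 read 8.23 and 8.40 in controls and 8.33 and 8.52 in experimental samples, and those of replicates 3 and 4 read 7.55 and 7.66, and 7.33 and 8.05. At 1421511_at the same arrays read 5.92 and 5.69, 5.68 and 5.87, and then 5.20 and 5.31, 5.41 and 5.38. In both probe sets every array of replicates 1 and 2 was above every array of replicates 3 and 4, a description that was not tested.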
